A study of Mus musculus with 4 samples.

Results

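The tiled arrays of this series hold 680 CpG-rich probes, defined here as probes of 60 nt with 3 or more CpG dinucleotides, among 19805 probes that tile 1 region of mouse chromosome 3 and 2 regions of the X chromosome. The definition uses only the probe's own letters and no measured value. CpG-rich probes made up 3.43% of the probes. A further 11448 probes had no CpG and served as the comparison, at equal C+G number. The arrays compared short nascent strands with total genomic DNA from untreated cells of PGK12.1, a female mouse embryonic stem (ES) cell line, in 2 size fractions. In each fraction, 300–800 nt and 100–600 nt, 2 hybridisations were made, and each array carried both DNAs with different dyes. The 300–800 nt strands were labelled with Cy3 and the 100–600 nt strands with Cy5, on arrays of different print designs read with different versions of the image software, so fraction, dye, design and software cannot be told apart. The fractionated strands had been treated with λ-exonuclease, which spares DNA that begins with an RNA primer. The values come from 1 cell line, whose labels name no separate cultures for the hybridisations.

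CpG dinucleotides are rare in most of the mouse genome, because methylated cytosine is prone to mutate to thymine. They persist in CpG islands, short C+G-rich stretches that are usually free of methylation and overlap many gene promoters. DNA replication starts at origins (ORIs), and strands that have only just been started cover the sequence next to an ORI. A probe with more nascent than genomic signal thus lies where short nascent strands were abundant.

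The following probe sequences show what was compared. All lie upstream of an annotated gene start and matched, over at least 30 bases, RefSeq promoter windows of assembly GRCm38.p6 that run from 250 bp before the start to 50 bp after it. They are written 5′ to 3′ on the plus strand, with every CpG in capitals. The first 5 are CpG-rich and had high values in both fractions, the next 2 are CpG-rich with low values in the 300–800 nt fraction, and the last 3 are the upstream probes with no CpG that have the most C+G.
Hprt (chrX:52987970-52988029): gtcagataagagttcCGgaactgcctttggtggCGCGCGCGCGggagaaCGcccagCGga
Gm52628 (chr3:96601184-96601243): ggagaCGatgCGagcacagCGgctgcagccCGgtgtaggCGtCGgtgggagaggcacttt
Vma21 (chrX:71816608-71816667): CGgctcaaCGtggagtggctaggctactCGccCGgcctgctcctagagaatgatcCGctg
Chd1l (chr3:97610258-97610317): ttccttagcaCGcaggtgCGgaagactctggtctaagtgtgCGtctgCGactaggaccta
Bcap31 (chrX:73716281-73716340): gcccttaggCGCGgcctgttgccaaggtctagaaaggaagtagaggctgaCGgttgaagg
Mtmr1 (chrX:71364644-71364703): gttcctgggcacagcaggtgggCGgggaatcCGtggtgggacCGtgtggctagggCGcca
H2bc18 (chr3:96269567-96269626): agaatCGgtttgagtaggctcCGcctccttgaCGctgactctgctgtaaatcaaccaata
Gabrq (chrX:72824923-72824982): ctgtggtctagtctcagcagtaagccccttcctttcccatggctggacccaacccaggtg
Srpk3 (chrX:73774230-73774289): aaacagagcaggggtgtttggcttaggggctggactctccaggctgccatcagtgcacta
Renbp (chrX:73930943-73931002): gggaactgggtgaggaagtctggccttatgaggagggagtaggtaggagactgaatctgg
The probes printed without CpG gave -0.31 and -0.34 (Gabrq), -0.01 and -0.12 (Srpk3) and 0.16 and 0.16 (Renbp) on the log2 scale in the 300–800 nt fraction, and -0.16 and 0.30, 0.53 and 0.94, and 0.85 and 1.02 in the 100–600 nt fraction. The values of the CpG-rich ones are given with their genes below.

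The CpG-rich probes had 52.4% C+G on average, ranging from 31.7% to 70%, against 40.7% for probes with no CpG. Most were at the lower limit of the definition, with 452 probes holding 3 CpG, 128 holding 4, 58 holding 5, 36 holding 6 or 7 and 6 holding 8, the most on the array. Of all 680, 364 had a C+G content of at least 50% and at least 0.6 of the CpG number that their C and G numbers would give by chance, the base composition by which CpG islands are usually recognised, against 423 of all 19805 probes. They lay on 566 of the 10582 tiled fragments, where a fragment is the unbroken stretch named in the probe's identifier. On 482 fragments a CpG-rich probe was the only one, and the other 198 shared 84 fragments. Chromosome 3 held 375 (5.48% of its probes), the first X region 141 (2.40%) and the second X region 164 (2.32%).

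Every CpG-rich probe had a value on both 300–800 nt arrays. On the 100–600 nt arrays, where spots marked by the software were left out, 609 had a value on replicate 1 and 572 on replicate 2, with 509 on both, 163 on 1 and 8 on neither. All values below are log2 ratios, nascent over genomic, after loess normalisation within the array, so 0 is the array's typical ratio and 1 is 2-fold enrichment. Both 300–800 nt hybridisations share a slide and differed between themselves by an SD of 0.0921, less than the 0.111 that repeated spots within an array would give, although the study's methods describe its replicates as biological. Their SDs therefore hold no visible spread beyond that of the spots. The SD between the 100–600 nt arrays was 0.348. Across the 509 CpG-rich probes with all 4 values, the correlation was 0.991 between the 300–800 nt arrays, 0.708 between the 100–600 nt arrays and 0.361 to 0.434 between arrays of different fractions; these describe probes, many of which share a fragment, and carry no test.

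CpG-rich probes had more nascent strand signal than probes with no CpG in both fractions. Their mean log2 ratio was 0.32 and 0.31 on the 300–800 nt arrays, where probes with no CpG averaged -0.04 and -0.04. On the 100–600 nt arrays it was 0.26 and 0.35, against -0.08 and -0.10. The difference was of the same sign on all 4 arrays. It was a shift of the whole distribution rather than of a few probes: on the 4 arrays 65.9% to 74.7% of the CpG-rich probes lay above 0, compared with 47.5% to 48.8% of the probes with no CpG. The spread among CpG-rich probes remained wide, with 5% of them below -0.95 and 5% above 1.60 on the first 300–800 nt array.

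Part of this gap went with C+G content. Against probes of exactly the same C+G number and no CpG, CpG-rich probes were higher by 0.22 ± 0.00 (SD of 2 arrays, 0.225 and 0.222) in the 300–800 nt fraction, over the 634 that had a counterpart. With 100–600 nt strands they were higher by 0.26 ± 0.05 (0.224 and 0.297), over 571 and 533. Without regard to C+G the gaps were 0.35 and 0.40. The matched gap in the 300–800 nt fraction fell to 0.107 when the arrays were centred on their median without loess, and was 0.109 from the deposited log10 ratio; the 100–600 nt gap was 0.329 with median centring. The unmatched means moved the other way with that setting, to 0.57 and 0.57 for CpG-rich probes against -0.07 and -0.07 on the 300–800 nt arrays. The 2 fractions' matched gaps differed by 0.04, less than the spread of the 100–600 nt arrays, and with 2 arrays a side an exact two-sided permutation test cannot give a p below 0.333. The signal itself also differed: at equal C+G the genomic DNA signal of CpG-rich probes was lower on all 4 arrays, by 0.24 to 0.41 on the log2 scale, while the nascent signal was lower by 0.29 to 0.30 on the 300–800 nt arrays and higher by 0.03 to 0.09 on the 100–600 nt arrays. Its part in the result was not tested, although matching on 5 classes of genomic signal as well as C+G left gaps of 0.246 and 0.194.

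From 40% to 58.3% C+G, where both kinds of probe were common, CpG-rich probes were the higher in every class of C+G content. At 40% to 43.3% C+G the 94 CpG-rich probes averaged 0.13 in the 300–800 nt fraction and 0.17 in the 100–600 nt fraction, where the 3805 probes with no CpG averaged -0.08 and -0.08. At 50% to 53.3% the values were 0.23 and 0.28 for 134 CpG-rich probes, and -0.08 and -0.01 for 622 probes with no CpG. At 55% to 58.3% they were 0.33 and 0.38 for 128, and 0.02 and 0.11 for 144. At 35% to 38.3% the 24 CpG-rich probes averaged -0.02 and -0.06, beside -0.04 and -0.14 for 2622 probes with no CpG, so the gap was small there. Above 60% the comparison thins out, since 18 probes with no CpG reach 60% to 63.3% and 1 reaches 65% to 68.3%. The highest CpG-rich means, 1.05 in the 300–800 nt fraction and 0.82 in the 100–600 nt fraction for 56 probes at 65% to 68.3% C+G, therefore have almost no counterpart. Restricted to C+G numbers with 20 or more probes without CpG, a choice made after the values were seen, the gap was 0.256 in the 300–800 nt fraction and 0.227 in the 100–600 nt fraction.

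The log2 ratio rose with each further CpG in the probe. In the 300–800 nt fraction the mean was -0.04 for probes with no CpG, -0.02 with 1, 0.06 with 2, 0.18 with 3, 0.38 with 4, 0.71 with 5, 0.85 with 6 or 7 and 1.86 with 8. The 100–600 nt fraction gave -0.09, -0.01, 0.07, 0.19, 0.37, 0.63, 0.83 and 1.29 in the same order. Probes with 1 or 2 CpG, which are not CpG-rich as defined, already lay above those with none. C+G content climbed along this series too, from 40.7% to 66.1%, so the same series was taken at equal C+G. The difference from probes with no CpG was then 0.04, 0.11, 0.19, 0.27 and 0.50 for 1 to 5 CpG in the 300–800 nt fraction, and 0.06, 0.12, 0.19, 0.34 and 0.51 in the 100–600 nt fraction, where the SD of the 2 arrays reached 0.12 for 5 CpG. With median centring the 300–800 nt differences were 0.02, 0.07, 0.08, 0.17 and 0.28, a smaller rise in the same order. Probes with 6 or 7 CpG had 20 matched members in the 300–800 nt fraction, whose few counterparts averaged 0.45, and their difference of -0.01 there and 0.59 in the 100–600 nt fraction rests on those counterparts.

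**Figure D1:**
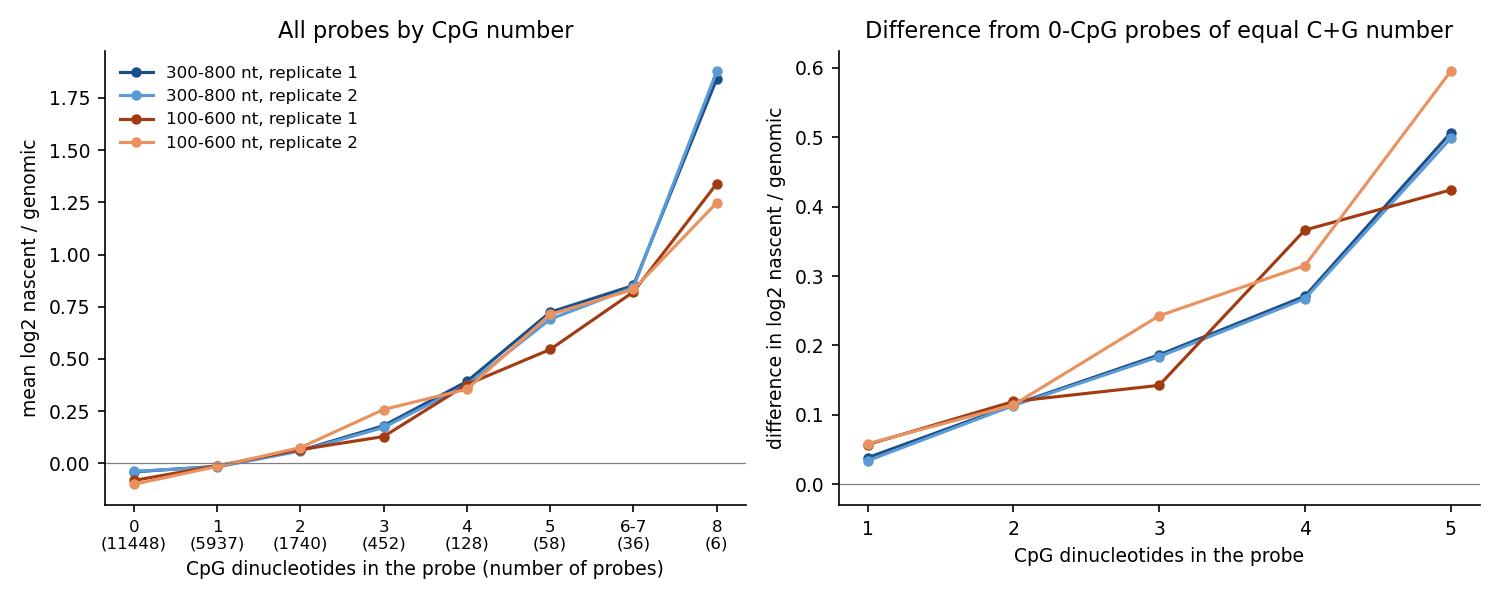
Left, mean log2 of nascent over genomic signal (y axis) for all probes by number of CpG (x axis, number of probes in brackets), 1 line per array. Right, difference of the mean from probes with no CpG and the same C+G number, in log2 units, for 1 to 5 CpG. All 4 arrays rise from left to right in the right panel, to 0.50 in the 300–800 nt and 0.51 in the 100–600 nt fraction at 5 CpG.

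A probe was called enriched where its mean log2 ratio over both arrays of a fraction was at least 1 and limma's test against 0 gave an adjusted p below 0.05. In the 300–800 nt fraction 112 of 680 CpG-rich probes (16.5%) were enriched, where the share of all 19805 probes was 7.62%. Of 509 tested in the 100–600 nt fraction, 44 (8.64%) were enriched, where the share of all 15478 probes was 0.497%. Every probe with a mean of at least 1 passed the test in both fractions, so the call is in effect one of fold. At the C+G numbers of the CpG-rich probes, 10.4% of the probes with no CpG were enriched in the 300–800 nt fraction, beside 14.04% of the CpG-rich probes that had a counterpart. The same figures for the 100–600 nt fraction were 0.116% and 6.93%. CpG-rich probes were 7.42% of the enriched probes in the 300–800 nt fraction and 57.1% of those in the 100–600 nt fraction. Depleted probes, with a mean of -1 or less, were fewer among CpG-rich probes, 27 of 680 (3.97%, with 8.61% of all probes) and 8 of 509 (1.57%, with 3.72% of all). With median centring 204 CpG-rich probes were enriched in the 300–800 nt fraction, where 10.7% of all probes were.

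From 3 CpG upward the share enriched grew with CpG number in both fractions. In the 300–800 nt fraction it was 7.47% of probes with no CpG, 7.09% with 1 and 7.01% with 2, and then 11.7% of probes with 3 CpG, 14.8% with 4, 34.5% with 5, 41.7% with 6 or 7, and 5 of the 6 probes with 8. With 100–600 nt strands it was 0.111%, 0.283% and 0.749% for none, 1 and 2, and then 2.67%, 15.8%, 16.7%, 31.0% and 4 of 6. In both fractions at once, 28 of the 509 CpG-rich probes with all 4 values were enriched, with 0.252% of all 15478 probes. Of those 28, 21 lie on a fragment that the study listed as an initiation site from these arrays.

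The 5 probes with the most CpG and, among those, the most C+G, held 8 CpG each and include the strongest and some of the most uneven values. The probe at a promoter listed as Mbn13, taken here as Mbnl3, a muscleblind-like RNA-binding splicing regulator (fragment 42816), had the highest 300–800 nt mean of all CpG-rich probes, with 2.94 and 2.86, but only 0.56 and 0.24 on the 100–600 nt arrays. F8a encodes a partner of huntingtin, and at its listed promoter a probe (fragment 66347, offset 880) gave 2.46 and 2.53, and 1.92 and 2.32. The neighbouring probe of the same fragment at offset 570 gave 1.69 and 1.77, and 1.66 and 1.09. Both probes were thus above 1 on all 4 arrays. The Hprt probe, upstream of the gene for a purine salvage enzyme, gave 2.31 and 2.37, and 1.57 and 1.61. The last of the 5, on fragment 107919 of chromosome 3, gave -0.31 and -0.29, and 0.74 and 0.93. The first 4 were therefore enriched in the 300–800 nt fraction and the last was not; its 300–800 nt mean was 0.14 with median centring.

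**Figure D2:**
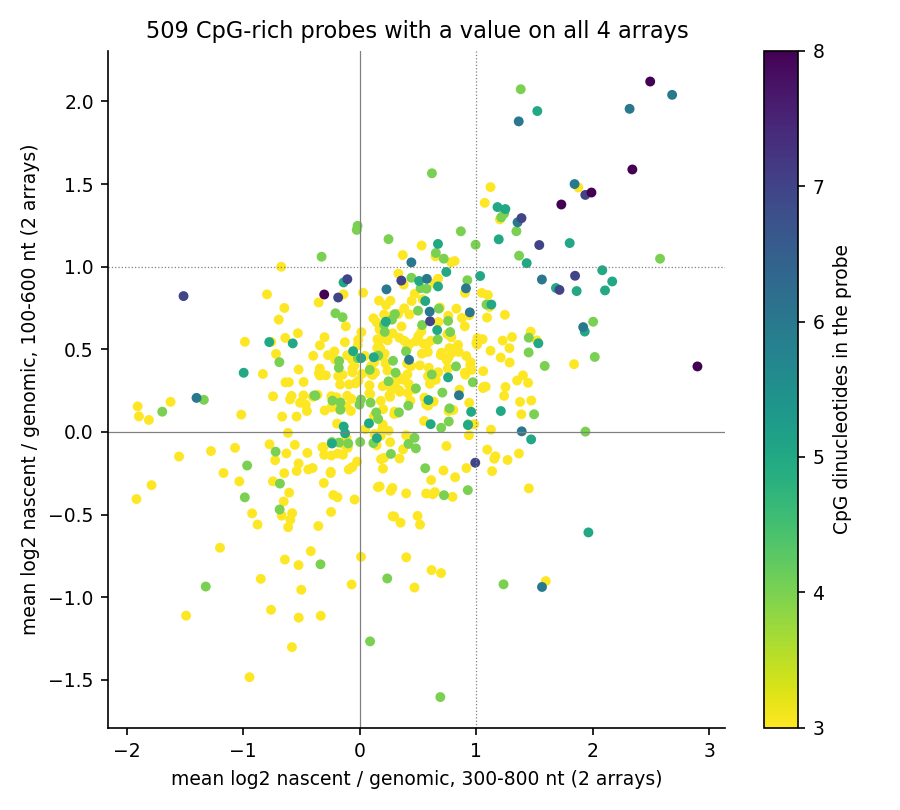
Mean log2 ratio of the 509 CpG-rich probes with values on all 4 arrays, 300–800 nt strands on the x axis and 100–600 nt strands on the y axis (2 arrays each), coloured by CpG number; dotted lines mark a log2 ratio of 1. Most probes with 6 to 8 CpG lie above 0 on both axes, and 28 probes lie past 1 on both axes.

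The other CpG-rich probes with the highest 300–800 nt values were nearly all at promoters in the study's list, itself chosen on these same arrays. The highest of these probes, on fragment 106197, lies 144 to 85 bp upstream of Gm52628, a predicted gene (listed as the promoter of Lix1). It gave 2.64 and 2.72 in the 300–800 nt fraction and 1.82 and 2.26 in the 100–600 nt fraction. At the promoter of Notch2, which encodes a receptor for signals between neighbouring cells, the probe with 6 CpG at offset 870 gave 2.32 and 2.32, and 1.89 and 2.02. The Rap2c probe, at the promoter of a small GTPase (fragment 42523), gave 2.50 and 2.66, and 1.12 and 0.97. Gpc3 encodes a cell-surface heparan sulfate proteoglycan, and its probe (fragment 44761, offset 410) gave 2.13 and 2.09, and 0.74 and 0.97. All of these were enriched in the 300–800 nt fraction, and the 3 probes at Gm52628, F8a (offset 880) and Notch2 were near 2 or above in the 100–600 nt fraction as well. A second Mbnl3 probe (fragment 42815) gave 2.18 and 2.16, and 0.76 and 1.06. A probe on fragment 46576 gave 2.09 and 2.08, and 0.32 and 1.63, so its 100–600 nt arrays disagreed. The 1 probe of these 10 that is on no listed fragment, on fragment 108638, gave 2.02 and 2.02, and 0.55 and 0.35. Its fragment is next in number to the listed fragment 108639.

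Among CpG-rich probes with values on all 4 arrays, the 5 lowest in the 300–800 nt fraction all had 3 CpG and all lay on chromosome 3. Their means ran from -1.92 to -1.79, and in the 100–600 nt fraction from -0.41 to 0.15. One of them is the printed H2bc18 probe, 133 to 74 bp upstream of a histone H2B gene, with -1.82 and -1.80 on the 300–800 nt arrays and 0.47 and -0.32 on the 100–600 nt arrays. Histone genes have near-identical copies, so its signal may be shared between loci, which was not tested for this upstream probe. These low values depend on the loess step: with median centring the 5 means ran from -1.59 to -0.45.

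RefSeq promoter windows held 41 CpG-rich probes, 6.03% of them, compared with 0.783% of all probes and 0.445% of those with no CpG. They fell at 40 genes, out of 120 genes whose window held any probe. CpG-rich probes in the windows averaged 0.70 in the 300–800 nt fraction, where the 51 probes with no CpG in such windows averaged -0.04 and the 63 with 1 or 2 CpG averaged 0.20. The corresponding 100–600 nt means were 0.65, -0.06 and 0.14. Of the 41, 13 were enriched in the 300–800 nt fraction, beside 4 of 51 with no CpG and 9 of 63 with 1 or 2. With 100–600 nt strands it was 11 of 31, beside 1 of 39 and 1 of 44. Probes near a gene start but without CpG thus did not have the higher mean. The means in the windows were not matched for C+G, and the part of C+G content in their difference was not tested. CpG-rich probes outside the windows averaged 0.29 and 0.29. The windows cover only 300 bp and only the RefSeq starts, so many promoter CpG islands extend beyond them.

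Among the 40 genes the values spanned 2.68 to -1.81 in the 300–800 nt fraction. After Gm52628, Hprt and Notch2 came Tmem185a, a membrane protein gene (1.53 and 1.54), and Kis2 (1.52 and 1.47), whose 100–600 nt values were lower, at 0.23 and 0.84, and 0.27 and -0.05. Ccdc160 gave 1.49 and 1.42, with 0.42 on the 1 100–600 nt array that had a value. Vma21 encodes an assembly factor of the vacuolar proton pump and gave 1.43 and 1.44, and 1.07 and 0.97. Flna encodes the actin crosslinker filamin A, and its probe gave 1.32 and 1.27, with 0.48 on the single 100–600 nt array. Chd1l, a chromatin remodelling enzyme, gave 1.20 and 1.23, and 1.31 and 1.28. The 2 Prrg3 probes averaged 1.16 and 1.18. On the 100–600 nt arrays 1 of them gave 1.74 and 2.02, and the other had no value on replicate 1 and 0.22 on replicate 2, where their mean was 1.12. These 10 genes were all above 1 in the 300–800 nt fraction, and in the 100–600 nt fraction 6 of them were at or above 0.97 on every array with a value. Bcap31, an endoplasmic reticulum membrane protein gene just below them, gave 1.23 and 1.02, and 1.58 and 1.38.

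At the other end, the 10 lowest genes had 300–800 nt means between 0.15 and -1.81. Hs6st2, Eola1, Haus7, Rnf115, Polr3c and Usp26 lay between 0.15 and -0.01, where Rnf115 and Polr3c share 1 probe. Hcfc1, a transcriptional coregulator, had a mean of -0.12 and Mbnl3 -0.19 for a probe with 5 CpG on fragment 42817. The lowest 3 parted the fractions. Mtmr1, a myotubularin-family phosphatase gene, gave -0.36 and -0.29 with 300–800 nt strands but 1.08 and 1.04 with 100–600 nt strands. The Fam50a probe, with 7 CpG, had a mean of -1.51 with 300–800 nt strands, and 1.00 and 0.64 with 100–600 nt strands. H2bc18 is described above. A CpG-rich probe beside a gene start was therefore not always high in the 300–800 nt fraction, even at 70% C+G as in the Mtmr1 probe printed above. These low values are after loess. With median centring the H2bc18 mean was -0.49, and the means of Mtmr1 and Fam50a under that setting are not given here.

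**Figure D3:**
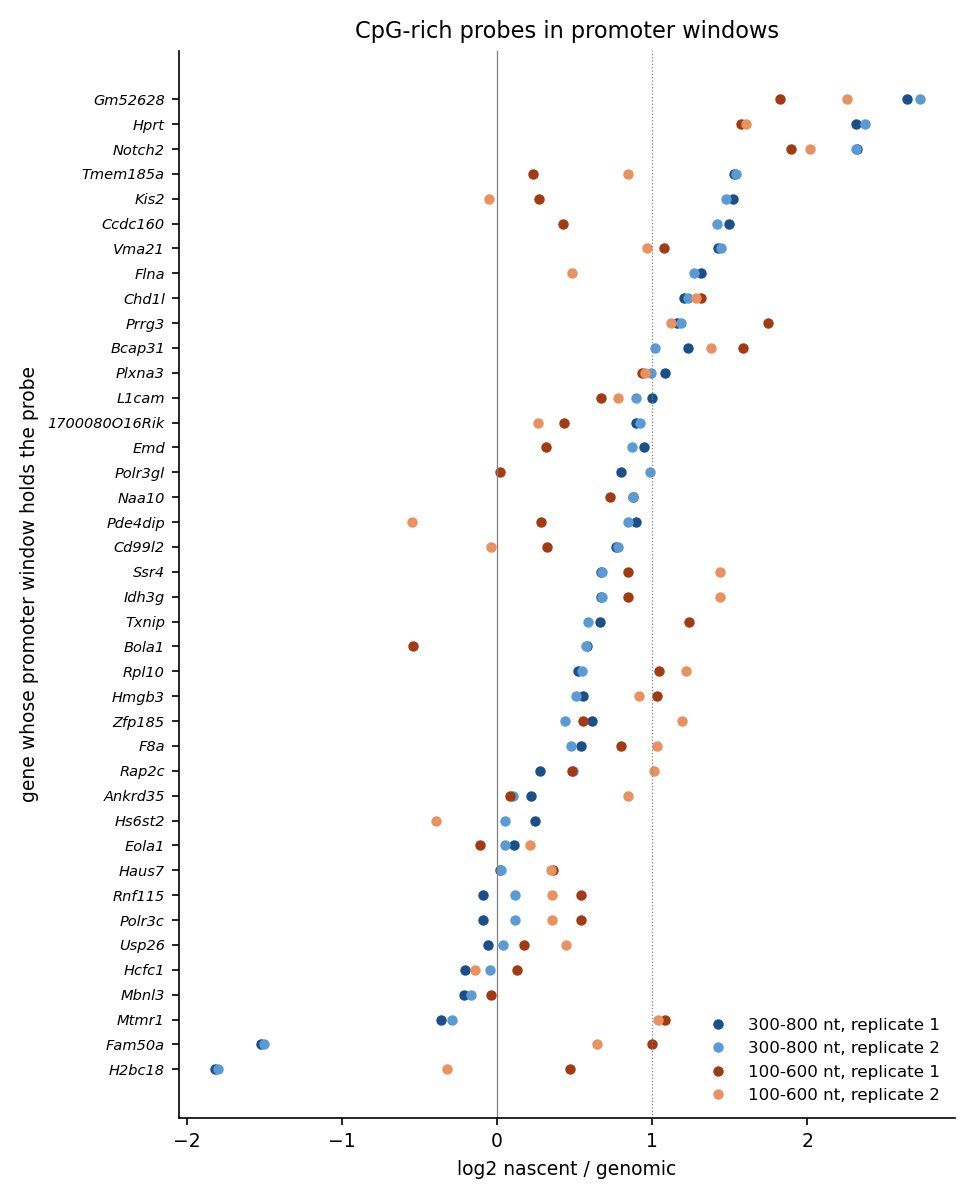
Log2 of nascent over genomic signal (x axis) on each of the 4 arrays for the CpG-rich probes in the promoter windows of 40 genes (y axis, ordered by the 300–800 nt mean). Where a window holds 2 such probes the point is the mean of those with a value on that array, and the dotted line marks a log2 ratio of 1. The 300–800 nt arrays (blue) lie close together at every gene, the 100–600 nt arrays (red and orange) spread more, and at Mtmr1, Fam50a and H2bc18 the fractions part.

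Within one promoter the values could differ sharply. At Notch2 the probe with 4 CpG at offset 600, 270 bp from the high probe at offset 870, gave -1.37 and -1.31, and 0.67 and -0.28; its mean with median centring was -0.04. Tbx15 encodes a T-box transcription factor. Its listed promoter fragment 109330 held 3 CpG-rich probes with 300–800 nt means from 0.61 to 1.92, and the 2 with both 100–600 nt values had means of 0.61 and 0.63. On fragment 109331, listed at the same promoter, 2 probes with 3 CpG had 300–800 nt means of 1.84 and 0.59. The second Flna probe, with 6 CpG at offset 273, gave 0.56 and 0.59, and 1.02 and 0.83. Zfp697 encodes a zinc finger protein, and at its listed last exon the probes with 7 and 6 CpG gave 1.60 and 1.83, and 1.58 and 1.55; their 100–600 nt values were 0.37 and 1.35, and 0.92 and 0.93. A probe on fragment 108590, listed at a promoter not annotated or Zfp697, gave 0.85 and 1.07, and -0.21 and 0.45.

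On the 10 fragments with the most CpG-rich probes every 300–800 nt mean of such a probe was above 0, and 17 of 39 were enriched. The share was 16.5% of all CpG-rich probes and 7.62% of all probes. Several of these fragments hold sites of the study's list, which was chosen on these same arrays, so the count is no independent evidence. Fragment 43419, at the listed promoter of the heparan sulfate 6-O-sulfotransferase gene Hs6st2, held 6, with means from 0.15 to 1.39 and 4 of them enriched. Fragment 106194, at the listed last exon of Ankrd34, held 5 with means from 0.43 to 1.59. Fragment 66347 of F8a held 4 with means from 0.51 to 2.50. Of the next 3 with 4 CpG-rich probes each, 2 on no listed fragment had no mean below 0.16 and held 1 enriched probe between them, and fragment 105597 at the listed promoter of the BolA-like gene Bola1 ran from 0.06 to 1.85. Fragment 65030 at Prrg3 held 3 between 0.98 and 1.37, and fragment 45200 at the promoter of Phf6, a PHD finger gene, held 3 between 0.76 and 1.93. Fragment 42521, whose window belongs to Rap2c, held 3 between 0.38 and 1.13. The 100–600 nt means were less even: at fragment 43419 they ran from -0.92 to 1.40, and at fragment 106194 from -0.69 to 1.35.

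The surroundings of a CpG-rich probe went with its value. Taking probes with no CpG on fragments without any CpG-rich probe as the counterpart, the matched gap was 0.42 ± 0.01 (SD of 2 arrays) in the 300–800 nt fraction for CpG-rich probes that shared a fragment, and 0.17 ± 0.00 for those alone. The 100–600 nt gaps were 0.37 ± 0.03 and 0.23 ± 0.06. Probes that shared a fragment had 3.89 CpG on average and those alone 3.45, but among probes with exactly 3 CpG the 300–800 nt gaps were still 0.42 and 0.14. For the 100–600 nt arrays those gaps were 0.27 ± 0.07 and 0.18 ± 0.07, apart by about the SD of the arrays. The 184 CpG-rich probes with no other probe within 500 bp, on fragments of median length 268 bp, had a mean of 0.10 in the 300–800 nt fraction and 0.17 in the 100–600 nt fraction. Probes with no CpG that stood as isolated were low as well, so that at equal C+G and equal isolation the gap was 0.15 in both fractions, beside 0.26 and 0.29 for CpG-rich probes with a neighbour against probes with no CpG that also had one.

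Probes with no CpG on the same fragment as a CpG-rich probe were themselves above the general level in the 300–800 nt fraction. Those up to 250 bp away were 0.08 ± 0.01 (SD of 2 arrays) higher than probes with no CpG and equal C+G on fragments without CpG-rich probes, and those over 250 and up to 500 bp away 0.09 ± 0.00. Over 500 and up to 1000 bp the difference was 0.18 ± 0.01, and over 1000 and up to 2000 bp 0.22 ± 0.00. In the same order the 100–600 nt differences were 0.00 ± 0.00, 0.04 ± 0.05, 0.14 ± 0.03 and 0.13 ± 0.05. The nearer 2 classes, which are not told apart by the SD of the arrays, thus lay below the farther 2 in both fractions, and fragments long enough to hold the far ones differ from the short ones. Within a fragment, after taking off the mean of probes with no CpG and the same C+G number, CpG-rich probes exceeded their own fragment's probes with no CpG by 0.16 and 0.15 on the 300–800 nt arrays and by 0.19 and 0.35 on the 100–600 nt arrays. They were the higher on 158 of 255 fragments on each 300–800 nt array, and on 149 of 221 and 150 of 208 on the 100–600 nt arrays.

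**Figure D4:**
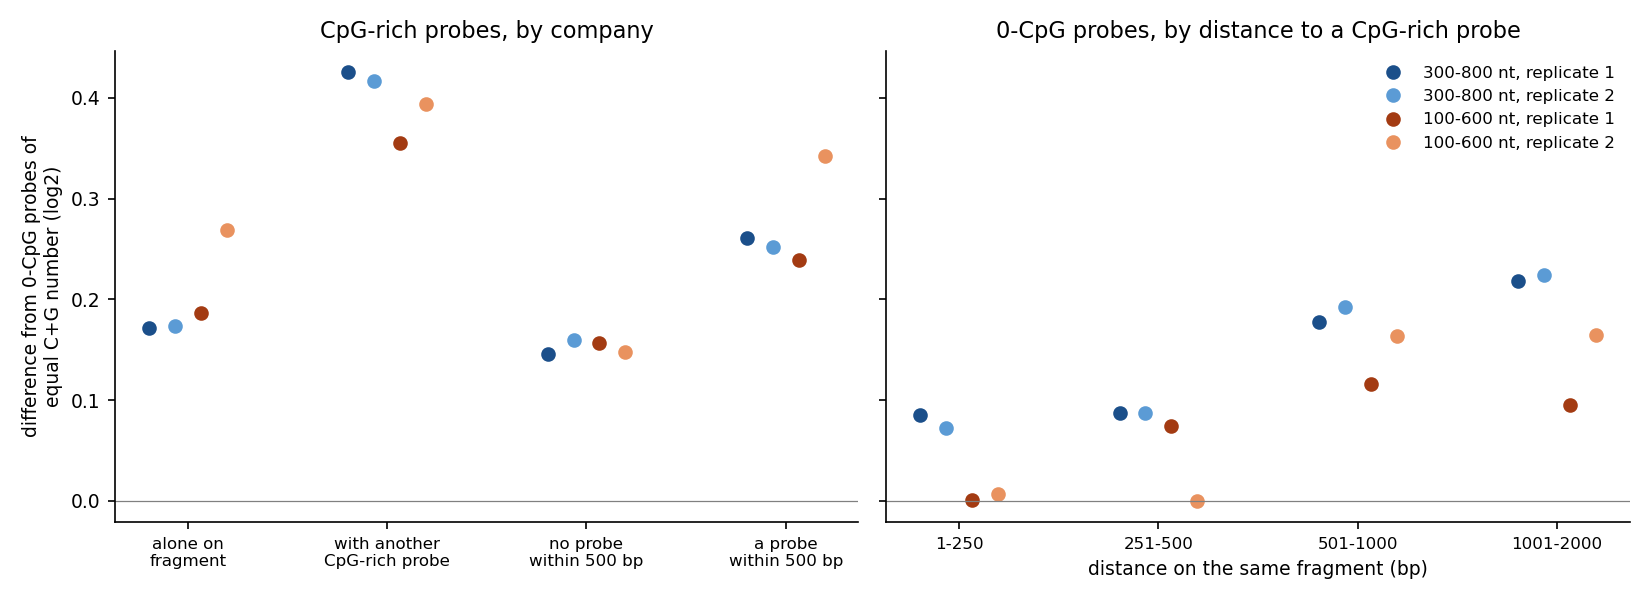
Difference in mean log2 ratio from probes with no CpG and equal C+G number (y axis), 1 point per array. Left, CpG-rich probes alone or together on a fragment, against probes on fragments without any CpG-rich probe, and those without or with another probe within 500 bp, against probes with no CpG in the same situation; right, probes with no CpG by distance in bp from the nearest CpG-rich probe of their fragment. CpG-rich probes in company lie highest on every array, and the probes with no CpG up to 250 bp away lie at 0.08 in the 300–800 nt and 0.00 in the 100–600 nt fraction.

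The gap was of one sign in each tiled region. In the 300–800 nt fraction it was 0.23 on chromosome 3, 0.26 in the first and 0.29 in the second X region, against probes of the same region. In the 100–600 nt fraction it was 0.22 ± 0.06, 0.33 ± 0.07 and 0.34 ± 0.01 (SD of 2 arrays). The study's listed initiation sites, chosen on these same arrays and so no independent evidence, comprised 150 probes, of which 44 were CpG-rich. Of these 44, 37 are labelled there as promoter with a CpG island, 3 as promoter without one, 3 as another place with a CpG island and 1 as another place without. All 44 were among the 112 enriched in the 300–800 nt fraction. With every fragment that holds a listed site left out, the CpG-rich probes were still higher by 0.174 in the 300–800 nt fraction and 0.233 in the 100–600 nt fraction. Fragments next in number to a listed one stayed in, such as 108638 beside 108639, so flanks of listed sites may remain. Their part was not tested. On the remaining fragments 58 of 586 CpG-rich probes (9.90%) were enriched in the 300–800 nt fraction, where 6.84% of all probes off those fragments and 7.02% of those with no CpG were; over all fragments, 10.4% of the probes with no CpG at the C+G numbers of CpG-rich probes were enriched. For 100–600 nt strands it was 22 of 435 (5.06%), with 0.273% and 0.0905%.

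Sequence features other than CpG were counted in both strands of the probe. GGGCGG, the GC box bound by Sp1, occurred in 21 CpG-rich probes (3.09%) and in 0.308% of all probes; it contains a CpG, so probes with none cannot hold it. The 21 averaged 0.68 and 0.67 on the 300–800 nt arrays and 0.44 and 0.74 on the 100–600 nt arrays, where the other CpG-rich probes averaged 0.31 and 0.29, and 0.26 and 0.34. They also had more CpG, 4.24 against 3.56. The 12 with a counterpart of equal C+G differed from it by -0.02 ± 0.03 in the 300–800 nt fraction and by 0.12 ± 0.29 in the 100–600 nt fraction. CACGTG, the E-box core, occurred in 19 CpG-rich probes (2.79%) and 0.571% of all probes. It contains a CpG too, so probes with none cannot hold it. CCAAT occurred in 6.47% of CpG-rich probes and 8.48% of probes with no CpG at their C+G numbers, TATAAA in 2.50% and 1.27%, and a run of 3 G or 3 C in 74.3% and 88.9%. The gap at equal C+G was 0.23 and 0.25 for CpG-rich probes with such a run, and 0.20 and 0.28 for those without, in the 300–800 nt and 100–600 nt fractions. GpC, the same letters in reverse order, occurred 3.95 times per CpG-rich probe and 3.27 times in probes with no CpG at equal C+G.

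The fractions differed at many CpG-rich probes, as they did across the array. By limma's test between the fractions, with adjustment over 15478 probes, 100 of 509 CpG-rich probes were higher in the 300–800 nt fraction, where 18.9% of all probes were, and 81 were lower, where 16.2% were. Both shares, 19.6% and 15.9%, are near those of all probes. Median centring turned the split to 133 higher (26.1%, with 17.3% of all probes) and 45 lower (8.84%, with 13.6%). Under that setting the shares were therefore not near those of all probes. Size, dye, print design and software version differ together between the fractions, and their parts cannot be told apart.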

How the data were processed

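Nascent strands and genomic DNA of PGK12.1 cells were hybridised together on 4 two-colour Agilent arrays designed on Ensembl mouse build 35. The authors deposited signal intensities per spot: background-subtracted and spatially detrended for the 100–600 nt arrays (Feature Extraction 7.5.1), background-subtracted and dye-normalised for the arrays of 300–800 nt strands (version 9.5.3.1). For the latter the authors also deposited a log10 ratio, used as an alternative. The loess step in GeneSpring and the ACME calls are not part of these files.

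Spots that the software marked were left out (8, 13, 1491 and 3450 on the 300–800 nt and 100–600 nt arrays). The log2 ratios were loess-normalised within each array (span 0.3, 4 iterations; limma 3.58.1, R 4.3.3) and averaged per probe. Enrichment and the difference between fractions were tested with limma and Benjamini-Hochberg adjustment over all probes with complete values. Matched gaps are means within C+G numbers weighted by CpG-rich probes, computed with Python 3.11.15, pandas 2.3.3 and numpy 2.4.6. Both steps were tested on simulated data. Promoters were found by exact match of at least 30 bases to RefSeq windows of GRCm38.p6 (165 matches, all on the plus strand); positions come from that match, since no genome of build 35 was used here. Listed sites were matched by sequence.

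The probes named are the 10 highest and 5 lowest CpG-rich probes in the 300–800 nt fraction among those with 4 values, the 5 with most CpG, the 10 fragments with most CpG-rich probes, the 10 highest and 10 lowest promoter genes, and the probes at Hprt, Notch2, Tbx15, Flna and Zfp697; Bcap31 and the printed probes without CpG were chosen after their values were seen. The probes at 1 further locus under this rule are not reported here. The CpG-rich probes and lists were chosen with earlier results of these data known. Each fraction has 2 arrays, which limits the precision, and p-values measure only the spread between them. Alternatives were background correction, normalisation, marked spots, probes dim in genomic DNA signal, CpG number, matching, fit, fold and leaving out each array.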

Additional observations from a re-analysis of the deposited data

Results flagged for a closer look

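At 181 of 509 CpG-rich probes (35.6%, with 35.1% of all 15478 probes) the ratio differed between the fractions by limma's test of the difference, and 21 of the probes reported under the naming rule were among them. Among these the highest excess of the 300–800 nt fraction was 2.50 at the Mbnl3 probe of fragment 42816. It was 1.57 on fragment 108638, 1.53 at Rap2c, 1.43 at a Tbx15 probe of fragment 109331, 1.29 and 0.86 at 2 of fragment 109330, 1.39 at Kis2, 1.26 at the second Mbnl3 probe, 1.25 at Gpc3, 1.00 at Tmem185a, 0.75 at Hprt and 0.64 at the Zfp697 probe with 6 CpG.

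The 300–800 nt value was the lower at Fam50a, where the difference was -2.33, on fragments 105997 (-2.06) and 105645 (-1.99), at H2bc18 (-1.88), at the Notch2 probe with 4 CpG (-1.53), on fragments 108633 (-1.51) and 106877 (-1.46), at Mtmr1 (-1.39) and on fragment 107919 with 8 CpG (-1.14). Several of these low values depend on the loess step. With median centring the 300–800 and 100–600 nt means were -0.04 and -0.02 at this Notch2 probe, and -0.49 and 0.10 at H2bc18. They were -0.45 and -0.01 on fragment 105997, -0.48 and 0.14 on 105645, and -0.91 and -0.29 on 106877. On fragment 108633 they were -1.59 and -0.30, and on 107919 0.14 and 0.91. The fractions also differ in dye, print design and software version, whose parts cannot be told apart.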

How the results depend on the processing

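The matched gap over all CpG-rich probes stayed above 0 under every alternative run. In the 300–800 nt fraction (0.223) the gap was 0.184 with normexp background correction, 0.107 with median centring, 0.109 from the deposited log10 ratio, 0.143 for 2 or more CpG, 0.395 for 5 or more, 0.246 with matching on genomic signal, 0.350 without matching, 0.229 against probes with 1 CpG, 0.194 with each fragment counted once, 0.174 without listed fragments and 0.256 where 20 or more counterparts existed. In the 100–600 nt fraction (0.261) it was 0.329 with median centring, 0.155 for 2 or more CpG, 0.560 for 5 or more, 0.194 with matching on genomic signal, 0.40 without matching and 0.183 against probes with 1 CpG; other settings moved it by less than the SD of the arrays. Leaving out 1 array gave 0.222 to 0.225 and 0.224 to 0.297.

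Enriched CpG-rich probes in the 300–800 nt fraction (112) numbered 204 with median centring and 411 with no fold required, and 91 to 97 without 1 array. In the 100–600 nt fraction (44) they numbered 117 with no fold required, 76 without replicate 1 and 58 without replicate 2. Probes differing between fractions (181) numbered 48 with normexp. They numbered 52 and 48 without replicate 1 or 2 of 300–800 nt strands, and 445 and 443 without replicate 1 or 2 of 100–600 nt strands, because the lone array then borrows the other fraction's spread. With normexp 85 CpG-rich probes (12.5%) were enriched in the 300–800 nt fraction, while all enriched probes fell from 1510 (7.62%) to 566 (2.86%). With the same setting all probes higher and lower in the 300–800 nt fraction fell from 2923 and 2504 to 519 and 321. The share of all probes is not given here for the settings with no fold required or with 1 array left out. The counts under those settings therefore cannot tell CpG-rich probes from probes in general.

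The correlation of replicate 1 minus 2 between fractions was -0.00973. It cannot tell whether the hybridisation numbers pair the arrays, because the 300–800 nt arrays differed by no more than repeated spots. With the numbers as a replicate block 186 CpG-rich probes differed. Of these, 106 were higher in the 300–800 nt fraction (20.8%, with 20.6% of all probes) and 80 lower (15.7%, with 17.1%). Of the CpG-rich probes 679 had genomic DNA signal well above background on every array. The nascent signal was not part of this check.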
